A study of Mus musculus with 20 samples.

Results

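The 8 genes described here, Mrc1, Cd163, Timd4, Folr2, Clec10a, Maf, F13a1 and Cbr2, are commonly used to mark the resident macrophages of adipose tissue. They were taken by symbol from the deposited count table. All 8 were found among its 55401 genes, and all 8 passed the filter on low counts. The libraries were made from polyA RNA of mouse eWAT, the white fat pad beside the epididymis. The Control group holds 10 libraries of mice on the control diet. The Random Food Restriction group, called restricted below, holds 10 libraries of mice whose regime joined intermittent fasting to a 5% cut in calories. The labels used here name no strain, age, genetic change or further agent for either group. A further label, spermatozyte contamination, marks 7 control and 3 restricted libraries Yes and the other 3 control and 7 restricted libraries No.

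Resident macrophages live in the stroma of the fat pad, around blood vessels and between adipocytes. They take up debris, dying cells, iron-carrying proteins and glycoproteins through a set of surface receptors. Signalling through the CSF1 receptor keeps macrophages alive, and IL-4 family cytokines and transcription factors such as c-MAF favour the expression of several of these receptors. Monocyte-derived macrophages that gather around fat-laden adipocytes in obesity are usually distinguished by other genes, among them Trem2, Cd9 and Gpnmb.

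Library totals ran from 14306528 to 44061508 counts, and single members were covered by 44 (Timd4) to 6720 (F13a1) counts per library. Adipoq, which encodes the adipocyte hormone adiponectin, was at 3213 to 5325 CPM (TMM-scaled counts relative to the library's sum over tested genes, ×1e6) over all libraries. Control 1 to 5 and Restricted 1 held skeletal muscle transcripts above a cutoff. The 5 control and 9 restricted libraries below it are described as without them. Muscle markers summed to 985 (Control 2) to 3409 CPM (Restricted 1) above the cutoff. Below it they still summed to 27.7 (Control 6) to 112 CPM (Restricted 10). Markers of the epididymis summed to 499 CPM in Control 1, 98.8 CPM in Control 6 and 13.2 CPM in Control 10, and to at most 5.11 CPM elsewhere (marker sums, Spata18 and Prm1 are scaled to the plain library total). Spata18, a gene of the testis, was at 1.55 to 9.54 CPM in libraries marked Yes and at 0 to 0.799 CPM in those marked No, whereas the sperm protamine gene Prm1 reached 6.16 CPM in the first and 6.71 CPM in the second. RNA integrity numbers were given for 9 control libraries (7.1 to 7.9) and 8 restricted ones (6.5 to 7.9). The labels do not tell whether each library stands for its own animal, so the spread behind the p-values is that of these samples and may be technical.

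Levels differed widely among the members. Compared per kilobase of gene model, the control mean was highest for Cbr2, a carbonyl reductase, at 57.3 ± 8.47 CPM per kb (SD, n = 10). Next came F13a1, the A subunit of coagulation factor XIII, which cross-links fibrin, at 28.6 ± 3.87, and Clec10a, a lectin for galactose-type sugars, at 26.5 ± 3.69 CPM per kb. Mrc1, the mannose receptor, followed at 19.4 ± 3.34, and Cd163, the scavenger receptor for haemoglobin bound to haptoglobin, at 16.3 ± 3.31 CPM per kb. Folr2, folate receptor beta, stood at 10.7 ± 2.08, and Maf, the transcription factor c-MAF, at 6.97 ± 0.936 CPM per kb. Timd4, a receptor for the phosphatidylserine that dying cells expose, was the least abundant, at 2.20 ± 0.485 CPM per kb. This order of neighbours held in all 20 libraries except for 3 pairs. F13a1 was above Clec10a in 17 libraries, Mrc1 above Cd163 in 16 and Folr2 above Maf in 18. Those 3 pairs were therefore not fully parted by the spread between libraries.

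None of the genes neighbours another, and 3 share chromosome 11, in the coordinates of the deposited table (GRCm38, whole annotated gene). Mrc1 (ENSMUSG00000026712.3) spans chr2:14229392-14332057 on the plus strand, Cd163 (ENSMUSG00000008845.9) chr6:124304656-124330527 on the plus strand, and Folr2 (ENSMUSG00000032725.10) chr7:101839988-101857194 on the minus strand. Maf (ENSMUSG00000055435.6) spans chr8:115682942-115707096 and F13a1 (ENSMUSG00000039109.16) chr13:36867178-37050244, both on the minus strand. On chromosome 11, Timd4 (ENSMUSG00000055546.6) spans chr11:46810800-46844332 and Clec10a (ENSMUSG00000000318.16) chr11:70156197-70170833 on the plus strand, and Cbr2 (ENSMUSG00000025150.10) spans chr11:120729489-120732114 on the minus strand.

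The starts of 4 members are shown because these genes are compared below, and because their start regions differ in 2 short motifs of macrophage transcription factors. RefSeq (GRCm38.p6) start regions were found for 6 of the 8 members, with 8 entries in all. Each window holds 250 bases before and 30 bases after an annotated start, written 5′ to 3′ on the strand of the gene. Capitals mark GAGGAA, a core of sites of PU.1, the master factor of myeloid cells, and TGCTGA, a half-site of MAF proteins, each searched on both strands (TTCCTC and TCAGCA on the other strand). The Mrc1 window is chr2:14229164-14229443 (plus strand), that of F13a1 chr13:37050215-37050494 (minus), that of Timd4 chr11:46810549-46810828 (plus) and that of Folr2 chr7:101857161-101857440 (minus).
Mrc1: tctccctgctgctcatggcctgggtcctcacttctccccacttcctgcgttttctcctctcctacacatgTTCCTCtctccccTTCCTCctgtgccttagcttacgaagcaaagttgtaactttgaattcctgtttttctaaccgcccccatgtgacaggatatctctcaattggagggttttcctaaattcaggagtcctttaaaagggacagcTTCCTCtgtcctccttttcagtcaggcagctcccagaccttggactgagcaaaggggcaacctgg
F13a1: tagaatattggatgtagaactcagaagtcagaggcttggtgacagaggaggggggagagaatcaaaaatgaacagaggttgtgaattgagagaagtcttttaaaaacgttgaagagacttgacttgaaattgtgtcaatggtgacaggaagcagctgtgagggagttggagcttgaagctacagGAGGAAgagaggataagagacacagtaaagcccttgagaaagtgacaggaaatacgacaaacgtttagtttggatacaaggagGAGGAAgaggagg
Timd4: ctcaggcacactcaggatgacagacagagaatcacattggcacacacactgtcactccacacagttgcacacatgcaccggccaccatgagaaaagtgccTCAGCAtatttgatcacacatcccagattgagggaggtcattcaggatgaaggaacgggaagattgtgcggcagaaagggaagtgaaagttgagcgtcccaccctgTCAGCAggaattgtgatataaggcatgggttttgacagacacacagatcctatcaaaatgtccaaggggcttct
Folr2: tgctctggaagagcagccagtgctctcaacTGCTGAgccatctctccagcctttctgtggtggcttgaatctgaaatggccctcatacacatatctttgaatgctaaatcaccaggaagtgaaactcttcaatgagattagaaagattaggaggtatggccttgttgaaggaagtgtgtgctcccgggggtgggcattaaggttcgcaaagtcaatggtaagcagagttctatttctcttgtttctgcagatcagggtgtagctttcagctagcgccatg

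The Mrc1 window held the PU.1 letters 3 times, with first bases 180, 167 and 35 bases before the start, all on the other strand. The F13a1 window held them at 66 bases before the start and at base 18 after it. The MAF letters were in the Timd4 window at 150 and 44 bases before the start and in the Folr2 window at 220 bases before it. F13a1 and Folr2 each have a further annotated start, whose windows are not shown. That of F13a1 held the PU.1 letters at base 15 after the start, and that of Folr2 the MAF letters 19 bases before it. The PU.1 letters were in 4 of the 8 windows of members and in 26% of all 32851 start windows of this length. The MAF letters were in 3 of 8 and in 18.2% of all. Short motifs such as these occur in many promoters, and a match is a description of the letters only.

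Of the 8 members, 5 were lower after restriction: Mrc1, Clec10a, F13a1, Cd163 and Folr2 fell, by between 1.44-fold and 1.62-fold. No member was called higher. Timd4, Cbr2 and Maf had estimates below 0 that did not pass the threshold (adjusted p under 0.05, edgeR's quasi-likelihood test with the contamination label as a term). Over all 15986 tested genes, 7.29% were called lower and 6.31% higher. The median log2 fold change was −0.53 over the members and 0.01 over all tested genes. The members and all gene lists below were chosen with earlier results of these data known. Setting their counts and medians against all genes is therefore a description only. In bulk tissue such as this, fewer cells of a type and less RNA per cell cannot be told apart.

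**Figure D1:**
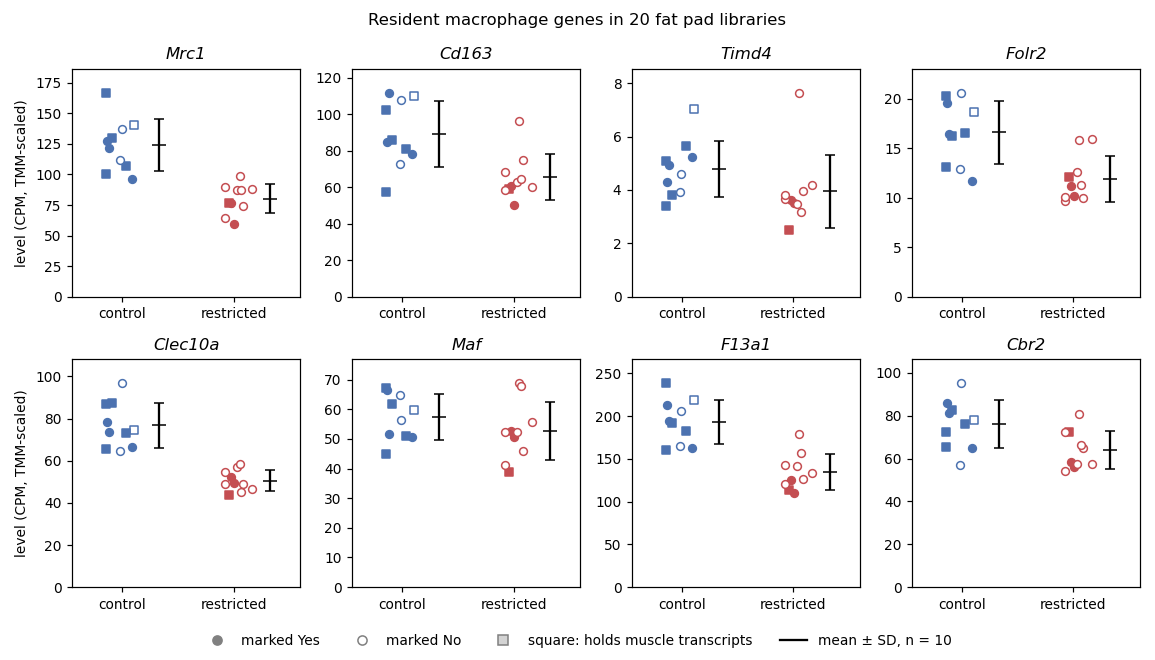
Level of each member (CPM, TMM-scaled, linear axes from 0) in the 10 control (blue) and 10 restricted (red) libraries. Filled points are marked Yes and open points No for contamination, squares hold skeletal muscle transcripts, and bars show mean ± SD (n = 10). The groups of Clec10a do not overlap, and Restricted 8 is the high restricted point of Timd4 at 7.63 CPM.

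Mrc1, an endocytic receptor for mannosylated glycoproteins and collagen fragments, ran from 96.0 to 167 CPM in control libraries, with a median of 125, and from 59.8 to 99.0 CPM in restricted ones, with a median of 82.2. In each diet 9 of 10 libraries lay beyond all those of the other, so that the groups touched only through Control 9 and Restricted 8. The log2 fold change was −0.70 ± 0.104 (SE; 95% interval −0.91 to −0.48; edgeR adjusted p = 0.000194), or 1.62-fold lower.

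Clec10a ran from 64.5 to 96.7 CPM in control libraries (median 74.1) and from 43.5 to 58.3 CPM in restricted ones (median 49.1). Every restricted library was below every control library. Such a parting, restricted below control in all libraries, was found in 0.588% of tested genes, and Clec10a was the only member with it. Its log2 fold change was −0.63 ± 0.0813 (SE; 95% interval −0.80 to −0.46; edgeR adjusted p = 5.81e-05), rank 26 among all tested genes by p. Of the sequence windows of 52 bases in the transcripts of Clec10a, 10.083% also occur in Mgl2, its near copy at chr11:70130329-70137550, so reads may be split between them. Mgl2 itself had a log2 fold change of −0.39 (edgeR adjusted p = 0.00334), and the summed counts of Clec10a and Mgl2 had −0.53 (adjusted p = 8.11e-05).

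Cd163 ran from 57.3 to 112 CPM in control libraries (median 85.3) and from 50.0 to 96.1 CPM in restricted ones (median 62.0). The ranges overlapped widely: 4 control libraries were above all restricted ones and 1 restricted library was below all control ones. Its log2 fold change was −0.54 ± 0.120 (SE; 95% interval −0.79 to −0.29; edgeR adjusted p = 0.00518). The gene of its ligand's carrier, haptoglobin (Hp), which adipocytes also make, fell as well (log2 fold change −0.51, adjusted p = 0.00200).

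Folr2, which binds and takes up folate, ran from 11.7 to 20.6 CPM in control libraries (median 16.5) and from 9.66 to 15.95 CPM in restricted ones (median 11.2). Of the control libraries 7 were above all restricted ones, and of the restricted libraries 6 were below all control ones. The log2 fold change was −0.53 ± 0.130 (SE; 95% interval −0.80 to −0.26; edgeR adjusted p = 0.00983). Gm10602 overlaps Folr2 on the opposite strand over 2784 bases, and without a stated strand setting the reads of this stretch cannot be told apart. Gm10602 had 1542 counts in all libraries together, against 7005 for Folr2, and its log2 fold change was 0.01 (adjusted p = 0.982).

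Timd4 ran from 3.40 to 7.04 CPM in control libraries (median 4.75) and from 2.48 to 7.63 CPM in restricted ones (median 3.63). The highest of all 20 libraries was a restricted one, Restricted 8, and no control library was above all restricted ones. The log2 fold change was −0.39 ± 0.176 (SE; 95% interval −0.76 to −0.03), with an adjusted p of 0.145 (edgeR). Without Restricted 8 the adjusted p was 0.0184, with a log2 fold change of −0.50, so that the call on Timd4 turned on this library.

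F13a1 is made by macrophages of this kind as well as by megakaryocytes. It ran from 161 to 238 CPM in control libraries (median 193) and from 111 to 179 CPM in restricted ones (median 130). Of the restricted libraries 9 were below all control ones, and 7 control libraries were above all restricted ones. The log2 fold change was −0.59 ± 0.0923 (SE; 95% interval −0.78 to −0.40; edgeR adjusted p = 0.000315).

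Cbr2, which reduces carbonyl groups with NADPH, ran from 57.2 to 95.1 CPM in control libraries (median 77.3) and from 54.3 to 81.1 CPM in restricted ones (median 61.9). The groups overlapped over most of their range. The log2 fold change was −0.26 ± 0.0962 (SE; 95% interval −0.46 to −0.06; edgeR adjusted p = 0.0739). The gene was called without Control 6, the lowest control library (adjusted p = 0.0205), and also without Restricted 8, the highest restricted one. Of its 52-base windows 14.731% also occur in Gm11771, which had 16 counts in all against 34685 for Cbr2.

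Maf, the transcription factor among the members, ran from 44.9 to 67.2 CPM in control libraries (median 58.0) and from 39.0 to 68.7 CPM in restricted ones (median 52.3). No control library was above all restricted ones. The log2 fold change was −0.19 ± 0.104 (SE; 95% interval −0.41 to 0.03; edgeR adjusted p = 0.243), so that a decrease of up to 0.41 on the log2 scale lies within the interval.

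Restricted 8 was the highest restricted library for 7 of the 8 members, all but Folr2, for which Restricted 6 was higher. Restricted 8 is marked No, had the highest RNA integrity number of its group, 7.9, and ranked 1 of 10 among restricted libraries in the mean level of 18 general macrophage genes. Control 5 was the lowest control library for 4 members and ranked 10 of 10 among controls in the same measure. At the outer ends, Control 1 and Control 7 were each the highest control library for 3 members. Restricted 1, which held muscle transcripts and ranked 10 of 10, was the lowest restricted library for 3. Restricted 2, with an RNA integrity number of 6.5, was the lowest for another 3. The 5 calls were all kept when any 1 of the 20 libraries was left out, with the highest adjusted p at 0.0402 for Folr2 without Control 7.

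No member was called by the contamination label. All 8 estimates were below 0 in libraries marked Yes against No with diet in the model, with a median log2 difference of −0.16 against −0.01 over all tested genes. The estimates ran from −0.04 ± 0.0962 for Cbr2 to −0.28 ± 0.176 for Timd4 (SE), and their 95% intervals all held 0. With edgeR 0 of 8 members were called by label (smallest adjusted p = 0.428, Cd163) and 0 had an unadjusted p under 0.05. DESeq2 also called 0 of 8. Of all tested genes 5.3% were called by label. Among 3 tested germ cell markers, Spata18 and Meig1 were called higher in libraries marked Yes, while Sycp3, of the meiotic chromosome axis, rose with restriction (log2 fold change 1.37, adjusted p = 0.000912). Of 11 tested muscle markers 0 were called by diet, but all had estimates below 0 (log2 fold changes −2.65 to −0.60, median −1.86). The libraries above the muscle cutoff were mostly controls. The 1 tested epididymis marker, Rnase10, was not called either (−0.39), and the rest of that list was not tested. The absence of calls therefore does not show that such tissue was evenly spread over the diets. Without Control 1 the same 5 members were called by diet, and without Control 6 these 5 and Cbr2.

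Within either label alone the diet estimates of all 8 members stayed below 0. In the libraries marked No, Mrc1 (−0.62, adjusted p = 0.0188) and Clec10a (−0.61, adjusted p = 0.0197) were called by edgeR, 2 of 8, where 1.63% of tested genes were called lower. F13a1 had −0.46 there (adjusted p = 0.0635). In those marked Yes, Mrc1 (−0.76, adjusted p = 0.0456), Clec10a (−0.65, adjusted p = 0.0267) and F13a1 (−0.71, adjusted p = 0.0267) were called, 3 of 8, where 0.996% of tested genes were called lower. Each of these fits compares only 3 libraries with 7. The diet difference was not found to differ between the labels: the interaction called 0% of tested genes and 0 of 8 members by edgeR. The smallest adjusted p among members was 0.859 (F13a1), none had an unadjusted p under 0.05, and 871 of all genes had one. DESeq2 called 1 gene by interaction.

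**Figure D2:**
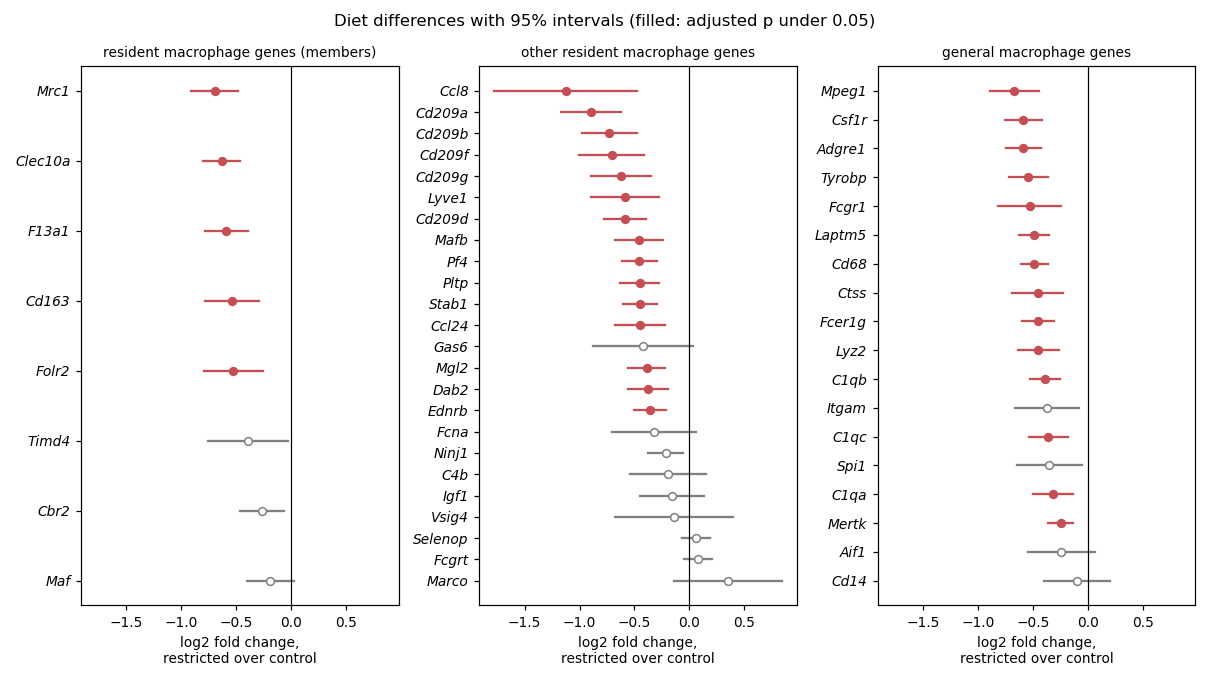
Log2 fold change of restricted over control libraries with 95% interval for the 8 members, 24 other resident macrophage genes and 18 general macrophage genes, ordered by size within each panel. Filled red points passed an adjusted p of 0.05. Nearly all points lie left of 0, with Maf the member nearest to 0 at −0.19.

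The wider set of macrophage genes was lower as well. Of 24 other genes of resident macrophages, 15 fell and 0 rose (log2 fold changes from −1.13 to 0.35, median −0.44). Cd209a, a C-type lectin of the DC-SIGN family, was at 9.09 ± 1.58 CPM in control and 4.96 ± 1.02 CPM in restricted libraries (SD, n = 10 each) and fell by 0.90. Its relatives Cd209b and Cd209d fell by 0.73 and 0.59, and Stab1, the scavenger receptor stabilin, fell by 0.45 (edgeR adjusted p of these 4 at most 0.000499). Cd209a and Mgl2 stand on the list of dendritic cell genes as well, and both are counted there again. The largest drop of the list was that of Ccl8, a chemokine, by 1.13 (adjusted p = 0.0205). The count of 15 was lower in smaller sets of libraries: 4 in libraries marked No, 7 in those marked Yes, 9 without muscle libraries, 8 in replicates 1 to 5 and 0 in replicates 6 to 10. In the 17 libraries with an RNA integrity number 15 fell, and with the number as a term 1 did. The share of all tested genes called lower, 7.29% in all libraries, was smaller in these settings too. It was 1.63% in libraries marked No, 0.996% in those marked Yes and 3.19% without muscle libraries. In replicates 1 to 5 it was 1.89% and in replicates 6 to 10 0.724%. In the 17 libraries it was 4.77%, and with the number as a term 1.17%.

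Of 18 general macrophage genes, 14 fell and 0 rose, with a median log2 fold change of −0.45. Csf1r, the receptor on whose signal macrophages depend, was at 234 ± 27.9 CPM in control and 161 ± 21.3 CPM in restricted libraries and fell by 0.59 (adjusted p = 9.04e-05, edgeR). Adgre1, the macrophage marker F4/80, fell by 0.58, Cd68, a lysosomal protein, by 0.49, and Laptm5, another lysosomal protein, by 0.49. The 4 without a call were Itgam, Spi1, Aif1 and Cd14. The count of 14 was 7 in libraries marked No and also in those marked Yes, 9 without muscle libraries, 10 in replicates 1 to 5 and 2 in replicates 6 to 10. It was 13 in the 17 libraries with an RNA integrity number and 7 with the number as a term. The shares of all tested genes called lower in the same settings, given above, were smaller as well. The summed level of the 18 genes was 1721 to 2329 CPM in control and 1020 to 1804 CPM in restricted libraries.

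Calls were also made in the other myeloid lists. For these and the lists that follow, the shares over all tested genes were 7.29% called lower and 6.31% called higher. Of 12 genes of lipid-associated macrophages, 3 fell and 0 rose, with estimates from −1.08 to 0.26. Those that fell were Itgax, an integrin, by 0.84, Gpnmb, a lysosomal glycoprotein, by 1.08, and Trem2, a lipid receptor, by 0.45. The median log2 fold change over the 12 genes was −0.35. Their summed level overlapped between diets, at 1131 to 1374 CPM in control and 1235 to 1367 CPM in restricted libraries. The 3 genes that fell made up little of this sum, with control means of 35.2 (Gpnmb), 12.2 (Itgax) and 11.6 CPM (Trem2). The mean log2(CPM + 0.1) of the 12 genes was 4.44 to 5.55 in control and 3.88 to 4.93 in restricted libraries. Of 11 monocyte genes 4 fell and 0 rose, with estimates from −0.67 to 0.46. Among those that fell was Ccr2, the chemokine receptor that recruits monocytes, by 0.50. Of 12 dendritic cell genes 6 fell, among them Wdfy4, which serves cross-presentation, by 0.72. Of these 6, Cd209a and Mgl2 are the genes shared with the resident list. Clec10a, too, is expressed by dendritic cells. The summed level of the dendritic cell genes was 237 to 336 CPM in control and 171 to 250 CPM in restricted libraries, and its part in the result for Clec10a was not tested.

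Among 18 tested genes of CSF1 and IL-4 family signalling, 5 fell and 2 rose. Besides Csf1r, Il4ra, the receptor chain for IL-4 and IL-13, fell by 0.42 (adjusted p = 0.000321), and Il1rl1, the receptor of IL-33, by 0.63 (adjusted p = 0.000146). Il34, the second ligand of the CSF1 receptor, went the other way, from 30.7 ± 5.15 CPM in control to 38.7 ± 4.35 CPM in restricted libraries, a log2 fold change of 0.44 ± 0.0823 (SE, adjusted p = 0.00147). Of 14 tested scavenger and endocytic receptors and their partners 4 fell, Stab1, Hp, Mertk and Axl, and 0 rose. Stab1 is also counted among the other resident macrophage genes and Mertk among the general ones. Mertk and Axl, which like Timd4 serve the uptake of dying cells, each fell by 0.25.

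Markers of other cell types moved with the diet too. Lymphatic endothelium also expresses Mrc1, as well as Lyve1. Lyve1 stands on the list of other resident macrophage genes too, so its call is counted both there and here. Of 7 tested lymphatic markers 5 fell and 0 rose, among them Reln (log2 fold change −1.77), Mmrn1 (−1.91), Prox1, the defining transcription factor (−1.28), and Lyve1 (−0.59). The summed level of the list was 88.1 to 151 CPM in control and 56.2 to 91.9 CPM in restricted libraries. Prox1 was above 0 in all 20 libraries, and Ccl21a was detected in only 2. The part of these cells in the result for Mrc1 was not tested.

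Of 5 tested mast cell markers 4 fell, all protease genes: Mcpt4 (log2 fold change −1.49), Tpsb2 (−1.36), Cma1 (−1.35) and Cpa3 (−0.91). Their list summed to 47.1 to 76.7 CPM in control and 27.0 to 37.3 CPM in restricted libraries, with no overlap. Of 9 progenitor markers 3 fell (Dcn, Pdgfra and Lum), of 8 T and NK cell markers 2 fell (Cd4 and Il7r), and of 5 B cell markers 0 were called by edgeR. Lum (edgeR adjusted p = 0.0499) and Il7r (0.0477, at a mean of 2.03 CPM in control libraries) passed the threshold only narrowly. Of 9 adipocyte markers 2 rose, Fabp4 by 0.31 and Lep by 0.50, and 0 fell. The summed adipocyte level overlapped between diets, at 37710 to 48381 CPM in control and 34557 to 47495 CPM in restricted libraries. The part of these shifts in the members' results was not tested.

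Members were next set against the general macrophage genes of their own library, as log2 CPM minus the mean log2 CPM of the 18 genes. That mean was 5.64 to 5.94 in control and 5.13 to 5.66 in restricted libraries, a label-adjusted difference of −0.43 ± 0.0565 (SE). Relative to it, Mrc1 differed by −0.26 ± 0.0824, Clec10a by −0.20 ± 0.0601 and F13a1 by −0.16 ± 0.0595 (SE), so that these members were lowered by more than the general genes were on average. Cd163 (−0.10 ± 0.112), Folr2 (−0.09 ± 0.120) and Timd4 (0.02 ± 0.147) differed by less than their SE. Maf differed by 0.23 ± 0.0769 and Cbr2 by 0.17 ± 0.107 in the other direction. The split depended on the reference genes. Against Csf1r and Adgre1 alone, Mrc1 stood at −0.10, Clec10a at −0.03 and F13a1 at 0.00, while Maf stood at 0.39 and Cbr2 at 0.34. Cd163, Folr2 and Timd4 then stood at 0.06, 0.07 and 0.19. These relative values are descriptions without a test.

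**Figure D3:**
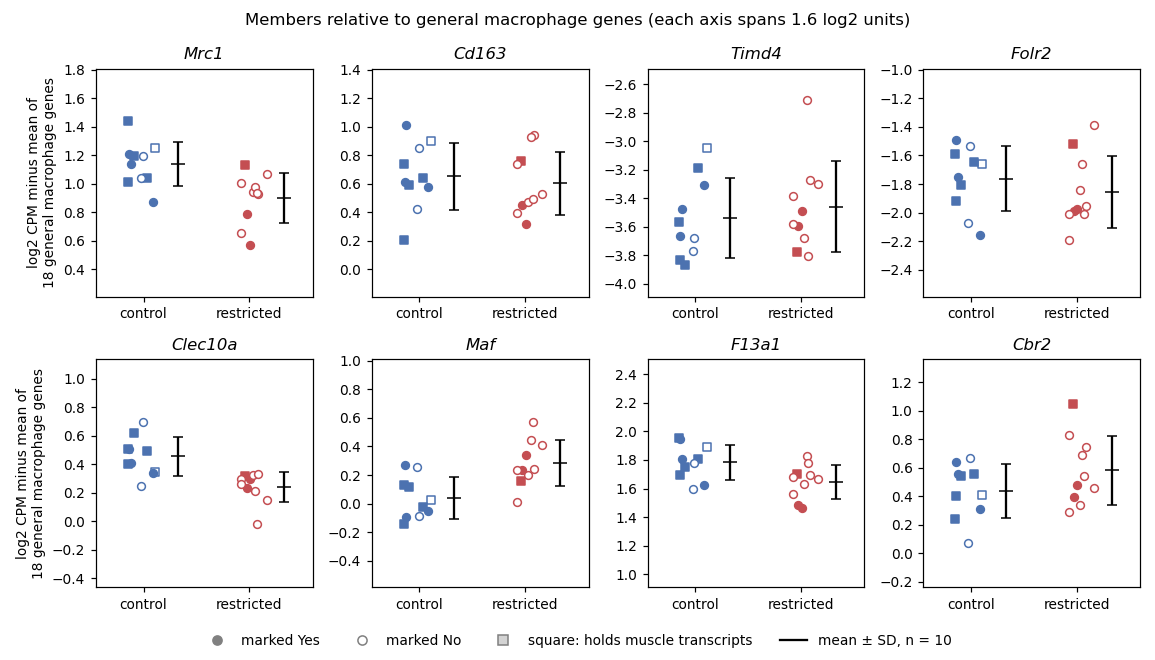
Log2 CPM of each member minus the mean log2 CPM of 18 general macrophage genes in the same library, by diet. Every panel spans the same number of log2 units, and bars show mean ± SD (n = 10). Restricted libraries sit lower for Mrc1 and Clec10a, higher for Maf, and in the same range for Cd163, Folr2 and Timd4.

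After the mean of each diet and label group was taken out, the members varied together over the 20 libraries to different degrees. The residual log2 CPM of Mrc1 and F13a1 had a Pearson r of 0.88, the highest of the member pairs, and Mrc1 and Folr2 had 0.76. Cd163 went with Cbr2 (0.72) and Timd4 (0.64). Maf and Cbr2 had the lowest r, 0.04. F13a1 had the highest mean r with the other members (0.66) and Timd4 the lowest (0.38). All points share the libraries and their depth, so these values only describe them.

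The 10 other genes whose residual levels were most like those of the members, by mean r over the 8 members and 20 libraries, were Csf1r (0.68), Pld4 (0.64), C1qa (0.63), Add3 (0.63), Abca9 (0.62), Slc9a9 (0.61), C1qb (0.60), Vit (0.60), C1qc (0.60) and Tifa (0.60). Of these, Csf1r and the 3 C1q genes, which encode the chains of complement C1q, were on the list of general macrophage genes. All 10 were called lower by diet, with log2 fold changes from −0.32 (C1qa) to −0.68 (Slc9a9), against 7.29% of all tested genes. Because these 10 were picked from the same data for their likeness to the members, this is a description only.

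Results for the members were then recomputed in smaller sets of libraries. In the 14 libraries without skeletal muscle transcripts, Mrc1 (−0.64), Clec10a (−0.59), Cd163 (−0.53) and F13a1 (−0.51) were called by edgeR, 4 of 8, where 3.19% of tested genes were called lower. Folr2 had nearly the same estimate as in all libraries, −0.51, at an adjusted p of 0.0923, and Timd4 had −0.18. In replicates 1 to 5 alone 4 of 8 were called (Mrc1, Clec10a, F13a1 and Folr2), against 1.89% of genes. In replicates 6 to 10 alone only Clec10a was called (−0.67, adjusted p = 0.0489), against 0.724% of genes. There Mrc1 had −0.54 (adjusted p = 0.110), F13a1 −0.34 (adjusted p = 0.301) and Timd4 0.08 (adjusted p = 0.940).

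The diet results were also recomputed with RNA integrity. In the 17 libraries with an RNA integrity number, 4 of 8 members were called lower by diet (Mrc1, Clec10a, F13a1 and Cd163) against 4.77% of tested genes. With the number as a further term, 3 of 8 were called, Mrc1 (−0.52, adjusted p = 0.0313), Clec10a (−0.49, adjusted p = 0.0170) and F13a1 (−0.47, adjusted p = 0.0418), against 1.17% of genes. Cd163 then had −0.31 (adjusted p = 0.269) and Folr2 −0.27 (adjusted p = 0.364). For the number itself, edgeR called 0% of all genes and 0 of 8 members, with 498 genes at an unadjusted p under 0.05. Members among those were Mrc1 (unadjusted p = 0.0155), Cd163 (0.0175) and Cbr2 (0.0428). The estimates were above 0 for all 8 members, with a median of 0.36 per unit of the number, against 0.20 for general macrophage genes and 0.01 for all tested genes.

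**Figure D4:**
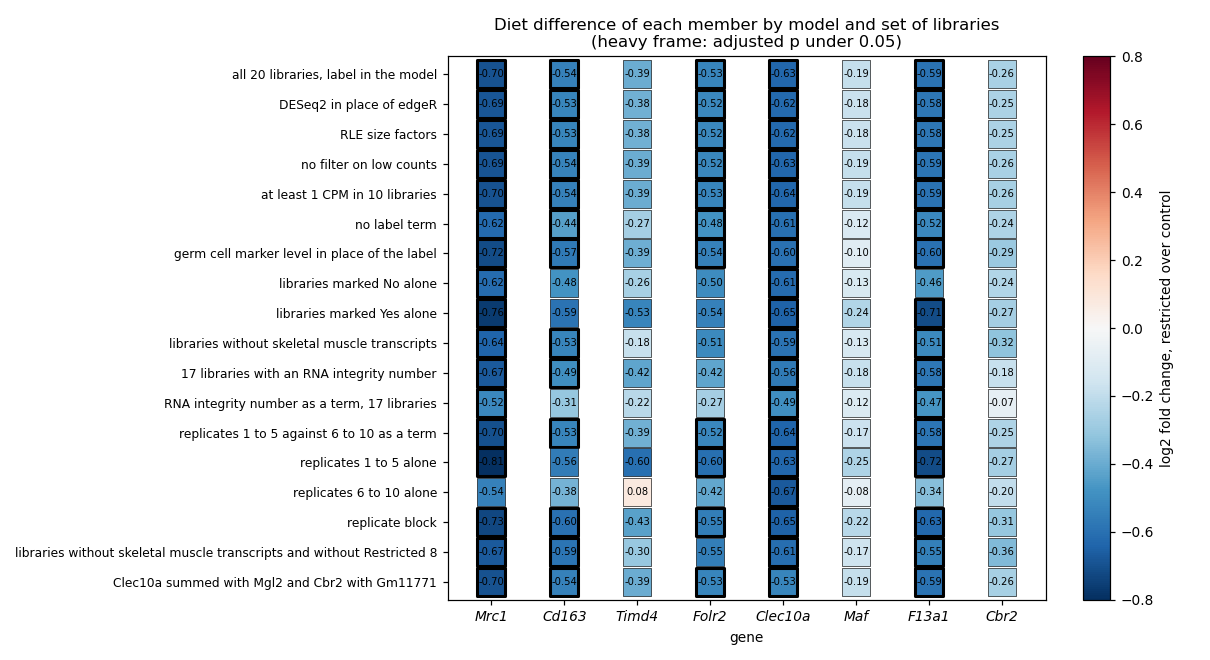
Log2 fold change by diet of each member (columns) under each model or set of libraries (rows). Colour and printed value give the estimate, and a heavy frame marks an adjusted p under 0.05. The Clec10a column is framed in every row, and the only value above 0 is Timd4 in replicates 6 to 10 alone, 0.08.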

How the data were processed

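PolyA RNA of 20 eWAT libraries was sequenced in paired reads of 52 bases, per the labels' protocols, whose extraction text says QUAD. The tissue label was followed. Named without role or order, per the submitters' processing notes, are STAR, Salmon, bcl2fastq 4.0.3 and GRCm38. The counting tool, annotation release and strand setting were not given in the sources used here. The authors deposited whole-number counts per gene.

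The 8 members and all gene lists were chosen with earlier results of these data known. Counts were tested with edgeR 4.0.16 (R 4.3.3): TMM, filterByExpr (minimum count 10), a quasi-likelihood fit with contamination label and diet, two-sided tests, Benjamini-Hochberg adjustment over all 15986 tested genes at 0.05. The interaction came from a fit that also held their product. CPM is TMM-scaled; log2 CPM has a prior count of 2. Library totals were 14306528 to 44061508 counts, and edgeR's coefficient of variation beyond counting error was 0.179. Libraries had muscle transcripts where 15 markers averaged at least 2.5 in log2(CPM + 0.1). Marker sums use all listed genes, scaled to the plain library total.

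Named were the members, up to 4 genes of the smallest diet p per list, the 10 genes most like the members by mean residual r, overlapping genes and Mgl2. Ccl8, Itgam, Spi1, Aif1, Cd14, Ccl21a and Prm1 were named after their values were seen. Replicate numbers were not treated as pairs in the main fit: same-numbered libraries had residual correlations of −0.10 to 0.09, and 0 of 10 pairs passed 0.1. Low correlations cannot exclude that equal numbers were matched in the design. No libraries matched within sampling noise (lowest chi-square per degree of freedom 9.17). Alternatives were DESeq2 1.42.0, RLE factors, other filters, other terms, subsets of libraries and leaving out each library. The fit was tested on simulated data for diet among 15841 genes. It called 51% of genes changed by 0.4, 62.5% by 0.7 and 89.8% by 1 on the log2 scale, with 9 false calls. Each rate rests on 48 or 49 genes. Far fewer genes were changed there than were called in the data, and no label effect was simulated, so the rates need not hold for the data. Figures used Python 3.11.15 with pandas 2.3.3 and matplotlib 3.10.9.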

Additional observations from a re-analysis of the deposited data

Results flagged for a closer look

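Timd4 in Restricted 8 stood at 7.63 CPM, where the next highest restricted library had 4.18 CPM. The gap took 0.670 of the range of the 10 restricted libraries, above the critical value of Dixon's test at 95%. This was 1 of 16 groups examined (8 members in each diet), and chance alone marks about 1 group in 20. Cd163 in the same library, at 96.1 CPM, had a gap of 0.461 of the range, just below that value.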

How the results depend on the processing

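All 8 members had a diet estimate below 0 under every alternative except Timd4 in replicates 6 to 10 alone (0.0771). The 5 calls were kept with DESeq2, RLE factors, both other filters, no label term, the germ cell marker level in its place, replicates 1 to 5 against 6 to 10 as a term, summed near copies and each library left out. Other settings called fewer members. Without muscle libraries 4 were called, also with Restricted 8 left out. The 17 libraries with an RNA integrity number gave 4, and 3 with the number as a term. Replicates 1 to 5 gave 4 and replicates 6 to 10 gave 1. There were 2 in libraries marked No and 3 in those marked Yes. The causes were not tested, and each of these settings also holds fewer libraries than the main fit. With and without the integrity number as a term the libraries were the same 17. The median member estimate there was −0.29 with the term and −0.46 without it. Leaving out a library gave 5 to 7 members, the 7 without Restricted 8. Over all genes 2173 were called by diet, and 1506 to 2274 with a library left out. The count was 1454 without a filter, 1126 with the germ cell marker level, 400 and 239 in libraries marked No and Yes, 927 without muscle libraries and 853 without Restricted 8 as well (chosen after seeing the data, like the summed copies and the interaction alternatives). It was 1445 in the 17 libraries with an integrity number, 392 with the number as a term, 429 in replicates 1 to 5 and 182 in replicates 6 to 10. With the replicate block 1388 genes and 5 members were called. Of the control libraries, 1 of 10 correlated best with its own number, which cannot show whether equal numbers were matched in the design.

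Label estimates of members, none of them called, crossed 0 in 12 cases. These were Clec10a (0.0197) and Cbr2 (0.0387) in the 17 libraries, and Folr2 (0.0378), Clec10a (0.0818) and Cbr2 (0.140) with the integrity term. In replicates 6 to 10 they were Cd163 (0.0234), Timd4 (0.178), F13a1 (0.0383) and Cbr2 (0.0282), where 0 genes were called by label. Without muscle libraries and Restricted 8 it was Timd4 (0.0463). With a library left out, Clec10a ran from −0.124 to 0.00554 and Cbr2 from −0.120 to 0.0327, both above 0 only without Control 7. By interaction DESeq2 called 1 gene, and edgeR 0 under each alternative run. The lowest count of a member in a library was 44, for Timd4.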
